A study of Mus musculus with 4 samples.

Results

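This account covers 9 genes known for holding lymphocytes at rest or for slowing their division: the Kruppel-like factors Klf2, Klf3 and Klf4, the forkhead factors Foxp1 and Foxo1, the antiproliferative genes Tob1, Btg1 and Btg2, and Tsc22d3. They were chosen by name, and every probe set that the array's annotation gives to that symbol alone was taken. This gave 12 probe sets for 8 of the 9 genes, out of 12422 probe sets that are not controls and 8251 genes named in that way. Foxo1 was not analysed here, because the annotation used gives it no probe set of its own. Klf3, Klf4, Foxp1 and Tob1 had 2 probe sets each and the other 4 genes had 1.

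The samples were a mouse T cell clone of the Th1 type, the CD4 helper cells that make interferon gamma. A control group of 2 arrays held normal, quiescent cells of the clone, and an anergic group of 2 arrays held cells turned anergic with antibody to CD3 bound to the plate. Anergic T cells stay alive but answer poorly to their antigen. The labels give no strain, no genotype and no time between the antibody and the harvest. Everything comes from clonal cells, and no label says that arrays of a group were separate cultures, so p-values cover only array-to-array spread, part of which may be technical.

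A resting T cell is kept out of the cell cycle by active programmes. Foxo1 and Klf2 drive receptors and homing molecules of resting T cells, and both are shut off by strong receptor signals, Foxo1 through phosphorylation by Akt and Sgk kinases. Foxp1 is a forkhead repressor that keeps naive T cells quiescent. Tob1, Btg1 and Btg2 belong to a family of small proteins that bring the CCR4-NOT deadenylase to messenger RNAs and shorten their poly(A) tails, and Tob1 is known as a brake on T cell activation. Tsc22d3 encodes GILZ, a leucine zipper protein induced by glucocorticoids that restrains NF-kB and AP-1.

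No probe set of these genes passed the main test between anergic and control cells, which left the replicate numbers out. With the replicate number as a block, 3 of the 5 tested passed in limma (both of Foxp1 and 1 of Tob1). Of all tested probe sets 10.2% passed in that fit. The largest differences were higher signals of Foxp1 and Tob1 in anergic cells, while the Kruppel-like factors and Tsc22d3 were too dim to be tested. Of the 12 probe sets, 5 were bright enough for the test, for Foxp1 (both), Tob1, Btg1 and Btg2. Limma with Benjamini-Hochberg adjustment over all 7453 probe sets tested called 0 of these 5 at an adjusted p under 0.05, where 1.34% of all probe sets were called (0.912% higher and 0.429% lower). That is 68 higher and 32 lower, or 52 and 12 with arrays centred on their medians. At an unadjusted p under 0.05 it found 3 of the 5, all higher in anergic cells, against 11.3% of all probe sets in either direction and 5.61% higher. Anergic and control arrays did not overlap for 4 of the 5 in the higher direction and for 1 in the lower, where 16.8% and 23.5% of all tested probe sets did so (40.3% in either direction). The median difference of the 5 probe sets, 2 of them for Foxp1, was 0.83 on the log2 scale, beside -0.09 for all those tested. With 1 value per gene the differences were 1.24 for Foxp1, 0.83 for Tob1, 0.39 for Btg2 and -0.28 for Btg1. A log2 difference here is the anergic minus the control mean of log2(intensity + 29.15), which understates changes of dim probe sets.

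**Figure D1:**
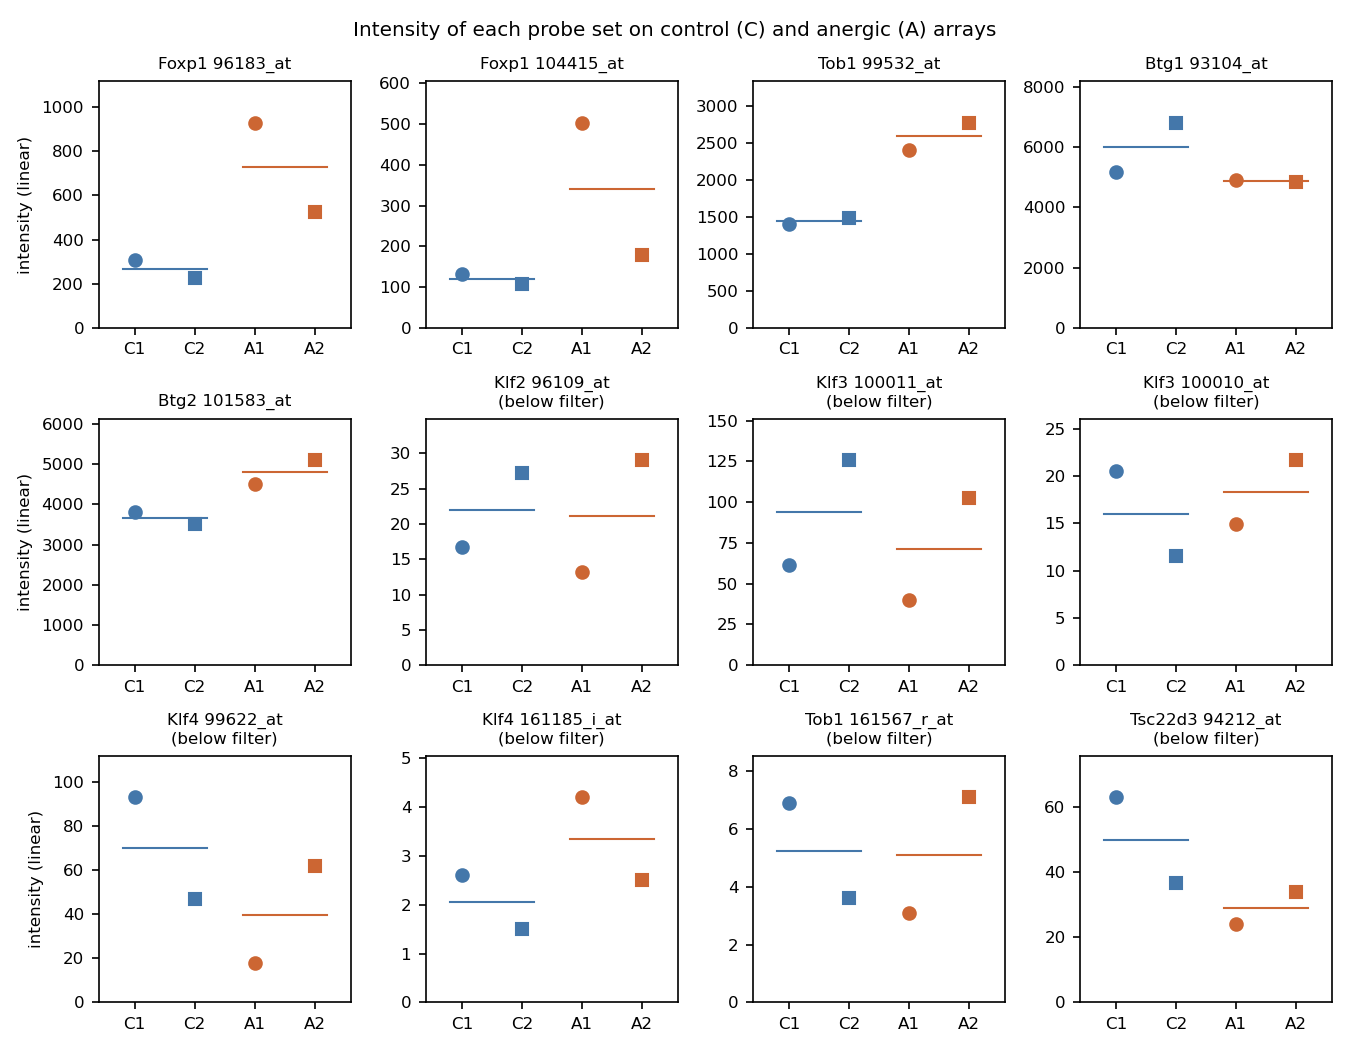
Intensity (linear scale, arbitrary units) of each of the 12 probe sets on control arrays 1 and 2 (C1, C2, blue) and anergic arrays 1 and 2 (A1, A2, orange), with the group mean as a line; circles are arrays numbered 1 and squares those numbered 2. Each panel has its own axis from 0, and heights are not comparable between panels. Both Foxp1 probe sets, Tob1 99532_at and Btg2 lie higher on both anergic arrays than on both control arrays.

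The arrays themselves differed in their dim range. The median intensity was 146.5 and 191.2 on control arrays 1 and 2, and 134.1 and 175.8 on anergic arrays 1 and 2. The 20th percentile was 26.7, 35.9, 20.7 and 31.6 in the same order, so arrays numbered 2 were higher than those numbered 1 at the low end in both groups. All 9 pan-T markers on the array were tested, and 0 passed in limma. Cd3e was between 5974 and 10101.8 and Cd4 between 3941.8 and 5106. Lat (246.7 to 479.2) and the brighter probe set of Cd247 (262.5 to 353.1) were dimmer. The 2 at an unadjusted p under 0.05 were Thy1 and Cd3d, which differed by -0.60 and 0.68 (adjusted p = 0.353 and 0.438). Of 6 Th1 markers tested, Ccl5 rose and 5 did not pass, among them Cxcr3 (-1.55 ± 0.31, SE, adjusted p = 0.0642) and Ifng (0.86 ± 0.24, adjusted p = 0.184). Summed over the 9 pan-T genes, the signal was 40994 to 53387 in control and 40004 to 45226 in anergic arrays. Over 9 B cell genes it was 653 to 1019 and 648 to 886. Over 13 macrophage and dendritic cell genes it was 1777 to 2557 in control and 1892 to 2784 in anergic arrays. In that list 7 genes were tested, Cd68 rose (2.31 ± 0.35, adjusted p = 0.0216), and 6 did not pass. Cd68 was at 71 and 91.3 on the control arrays and at 497.6 and 531.5 on the anergic arrays. Both control values lay below the filter on dim probe sets, an intensity of 92.4, so only the anergic signal brought it into the test. Without a filter it did not pass in limma (adjusted p = 0.0661). Ccl5 did not pass in fits that lacked anergic array 1 or 2 (adjusted p = 0.262 and 0.31), nor did Cd68 (adjusted p = 0.141 and 0.117). None of these lists holds a marker at exactly 0, since every deposited value is positive, but 6 of 9 B cell genes and 6 of 13 macrophage genes lay below the filter. The macrophage receptor gene Csf1r was at 21.1 and 25.9 on the control arrays and at 55.8 and 125.7 on the anergic arrays at a probe set below the filter, while its tested probe set differed by 0.03. Adgre1 was also higher on both anergic arrays at both of its probe sets, with no value above 36.9. Lyz2 was lower on both anergic arrays at its brighter probe set (129.1 and 73.3 against 11.7 and 11.4), and Cd14 differed by -0.13. The part of such cells in the differences below was not tested.

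Foxp1 gave the largest differences of the group. At probe set 96183_at the intensity was 308.1 and 226.3 on control arrays 1 and 2, and 929.1 and 523.9 on anergic arrays 1 and 2. Both anergic arrays stood above both control arrays. The control mean was 267.2 ± 57.8 and the anergic mean 726.5 ± 286.5 (SD, n = 2 each), 2.48-fold apart on the log2(intensity + 29.15) scale. The log2 difference was 1.31 ± 0.36 (SE; 95% interval 0.49 to 2.14), which did not pass in limma (adjusted p = 0.174). Among the tested probe sets 1.58% had a higher difference. In a bulk sample, more cells with the transcript and more transcript per cell cannot be told apart.

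The second Foxp1 probe set, 104415_at, ranked the arrays in the same order. It was at 131.3 and 108.3 on control arrays 1 and 2, and at 504 and 179.4 on anergic arrays 1 and 2. Anergic array 1 was far above the other anergic array, and anergic array 2 lay closer to the controls than to it. The log2 difference was 1.17 ± 0.49 (SE; 95% interval 0.03 to 2.30; limma adjusted p = 0.424). Its control values lay above the filter, which equals an intensity of 92.4, so the anergic signal alone did not bring it into the test. Both probe sets read the same gene and are not independent evidence. The mean of both gave 1.24 ± 0.40 (SE, adjusted p = 0.195 in limma over genes).

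The size of the Foxp1 difference rested in part on anergic array 1. Without that array it was 0.91 at 96183_at (adjusted p = 0.858) and 0.49 at 104415_at (adjusted p = 0.9996). Without anergic array 2 the values were 1.71 and 1.84 (adjusted p = 0.143 and 0.196). Without control array 1, 96183_at passed in limma, at 1.51 ± 0.44 (SE, adjusted p = 0.04), a fit in which the lone control array is assumed to vary like the anergic arrays.

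Tob1 was higher in anergic cells on both anergic arrays alike. Over all arrays its difference was smaller than those of Foxp1. Without anergic array 1 it was 0.93, beside 0.91 and 0.49 for the Foxp1 probe sets. The Tob1 probe set 99532_at was at 1401.7 and 1489.9 on control arrays 1 and 2, and at 2404.9 and 2775.4 on anergic arrays 1 and 2. The groups did not overlap, and the gap between them was wider than the spread within either. The means were 1446 ± 62.4 and 2590 ± 262 (SD, n = 2 each), and the log2 difference was 0.83 ± 0.23 (SE; 95% interval 0.30 to 1.35), a fold of 1.77. Limma gave an adjusted p of 0.179, so the probe set did not pass. Each of the 4 pairings of an anergic with a control array showed a difference between 0.68 and 0.97, while the control arrays differed by 0.09 and the anergic arrays by 0.20. Leaving out any single array left a difference between 0.72 and 0.93. The other Tob1 probe set, 161567_r_at, was between 3.1 and 7.1 on the 4 arrays and says nothing on the gene's level.

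Btg2, a relative of Tob1 that p53 and growth signals induce early, was also higher on both anergic arrays, by less. It was at 3819.2 and 3504.7 on control arrays 1 and 2, and at 4516.1 and 5109.5 on anergic arrays 1 and 2. The log2 difference was 0.39 ± 0.22 (SE; 95% interval -0.11 to 0.89; limma adjusted p = 0.576). Pairings of single arrays ranged from 0.24 to 0.54, and 15.4% of all tested probe sets had a higher difference.

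Btg1, the closest relative of Btg2, leaned the other way. It was at 5163.7 and 6817.1 on control arrays 1 and 2, and at 4902.7 and 4853.3 on anergic arrays 1 and 2. Control array 2 stood above the other 3 arrays, and control array 1 was only just above the anergic arrays. The log2 difference was -0.28 ± 0.23 (SE; 95% interval -0.81 to 0.25; limma adjusted p = 0.748). It was -0.08 without control array 2 and -0.48 without control array 1. The interval leaves room for a fall of up to 0.81 or a rise of up to 0.25 in log2 units, so a stable Btg1 level was not shown.

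**Figure D2:**
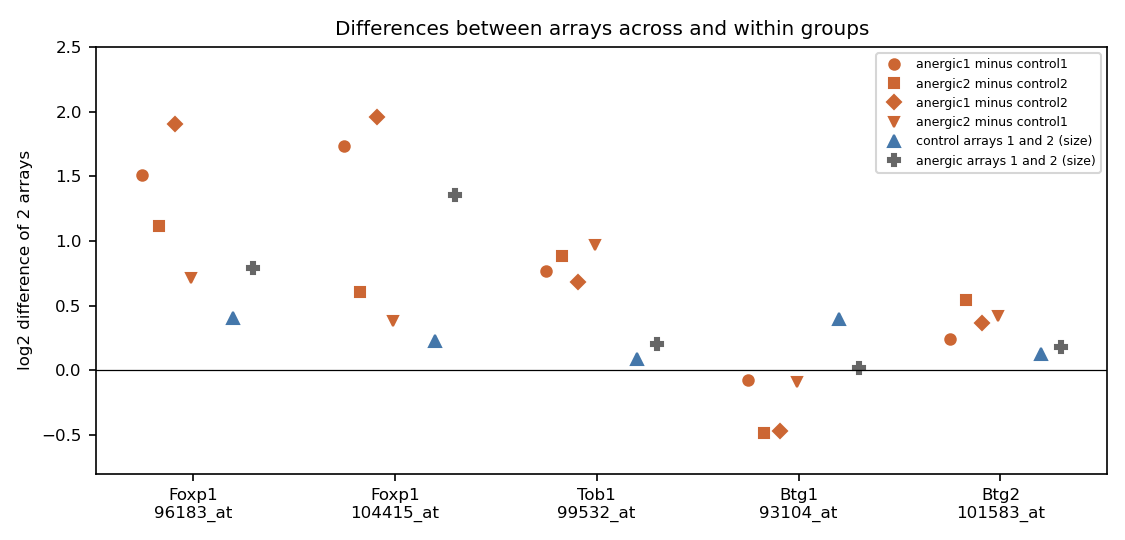
Log2 difference between 2 arrays (vertical axis) for the 5 tested probe sets: orange marks are the 4 pairings of an anergic with a control array, and the blue triangle and grey cross are the sizes of the differences within the control group and within the anergic group. For Tob1 all 4 pairings (0.68 to 0.97) exceed both differences within groups (0.09 and 0.20), while for Foxp1 104415_at the anergic arrays differ by 1.35.

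The 3 antiproliferative genes differ in the DNA just before their start sites. That DNA is shown because the mean signals of Tob1 and Btg2 were higher in anergic cells and that of Btg1 lower. None of the 3 passed the main test. The 95% intervals of Btg2 (-0.11 to 0.89) and Btg1 (-0.81 to 0.25) hold both signs, so opposite changes were not shown. Whether this DNA has a part in the signals was not tested. The windows are the 250 bases before the RefSeq start in build GRCm38.p6, written 5' to 3' on the gene's strand. Capitals mark every match, on either strand, to GTAAACA (the forkhead core), TGACGTCA (the cAMP response element), TGANTCA (the AP-1 site), TATAAA (the TATA box) or CCAAT (the CCAAT box). No matches overlapped in these windows. Tob1 lies at chr11:94211204-94211453 on the plus strand, Btg2 at chr1:134079156-134079405 on the minus strand and Btg1 at chr10:96616751-96617000 on the plus strand.
Tob1: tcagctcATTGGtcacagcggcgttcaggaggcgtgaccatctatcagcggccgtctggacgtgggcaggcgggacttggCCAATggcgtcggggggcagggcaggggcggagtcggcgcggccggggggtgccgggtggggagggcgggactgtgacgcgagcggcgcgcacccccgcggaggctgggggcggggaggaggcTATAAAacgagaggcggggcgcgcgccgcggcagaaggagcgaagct
Btg2: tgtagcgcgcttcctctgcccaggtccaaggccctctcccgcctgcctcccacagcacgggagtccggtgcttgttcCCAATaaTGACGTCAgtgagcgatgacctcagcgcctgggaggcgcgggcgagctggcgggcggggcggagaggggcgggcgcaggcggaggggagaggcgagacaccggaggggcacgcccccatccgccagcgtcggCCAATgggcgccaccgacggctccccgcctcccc
Btg1: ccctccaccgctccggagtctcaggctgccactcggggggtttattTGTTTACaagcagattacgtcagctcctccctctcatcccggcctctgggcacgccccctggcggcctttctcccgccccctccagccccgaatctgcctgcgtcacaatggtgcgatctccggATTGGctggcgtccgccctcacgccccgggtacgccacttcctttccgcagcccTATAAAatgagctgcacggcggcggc
Tob1 and Btg1 hold TATAAA, starting 47 and 26 bases before the start, a motif found in 12.4% of 32851 such windows over all genes. Btg2 holds no TATAAA but TGACGTCA at 166 to 159 bases before its start, found in 1.55% of windows. Btg1 alone among the 9 genes holds GTAAACA, on the other strand at 204 to 198 bases before the start, against 3.17% of windows. CCAAT stood in 5 of the 13 windows of the 9 genes and in 33.8% of all windows. TGANTCA stood in none of the 13 windows of the 9 genes and in 6.75% of all. The GC content was 73.6% for Tob1, 73.2% for Btg2 and 65.2% for Btg1, beside a median of 52.4% over all windows. These matches are letters in the sequence and not measured binding.

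The Kruppel-like factors were dim on every array. Klf2, which sustains homing receptors in resting T cells, was at 16.8 and 27.3 on control arrays 1 and 2, and at 13.2 and 29.1 on anergic arrays 1 and 2. Each value lay below the 20th percentile of its own array. The arrays numbered 2 were higher than those numbered 1 in both groups, as were the arrays' 20th percentiles, and what part the array's dim range had in the Klf2 values was not tested. The log2 difference was -0.04, with a 95% interval of -0.68 to 0.61 in the fit without a filter on low values. At this brightness a change of either sign within that interval could not be seen.

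Klf3, a repressor that opposes other members of its family, showed the same pattern at its brighter probe set. That probe set, 100011_at, was at 61.6 and 125.9 on control arrays 1 and 2, and at 40.1 and 102.5 on anergic arrays 1 and 2. The groups overlapped, and the log2 difference was -0.31 (95% interval without a filter -1.56 to 0.94). The probe set 100010_at stayed between 11.5 and 21.7, with a difference of 0.08. Klf4, which can halt the cell cycle through the inhibitor gene Cdkn1a, was at 93 and 47 on control arrays 1 and 2, and at 17.9 and 61.6 on anergic arrays 1 and 2 (99622_at). Here too the groups overlapped (-0.56, interval -1.68 to 0.56), and the second probe set, 161185_i_at, was between 1.5 and 4.2 on all arrays.

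Tsc22d3 was at 63 and 36.7 on control arrays 1 and 2, and at 24.2 and 34 on anergic arrays 1 and 2. Both anergic arrays were below both control arrays, with 36.7 and 34 the closest values. The log2 difference was -0.42, with an interval of -1.26 to 0.41 without a filter. It was the only one of the 7 untested probe sets whose groups did not overlap, where 30.5% of all untested probe sets did not. With all 12 probe sets in the fit without a filter, limma called 0 at an adjusted p under 0.05 and found 2 at an unadjusted p under 0.05, beside 0.475% and 8.69% of all 12422 probe sets.

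**Figure D3:**
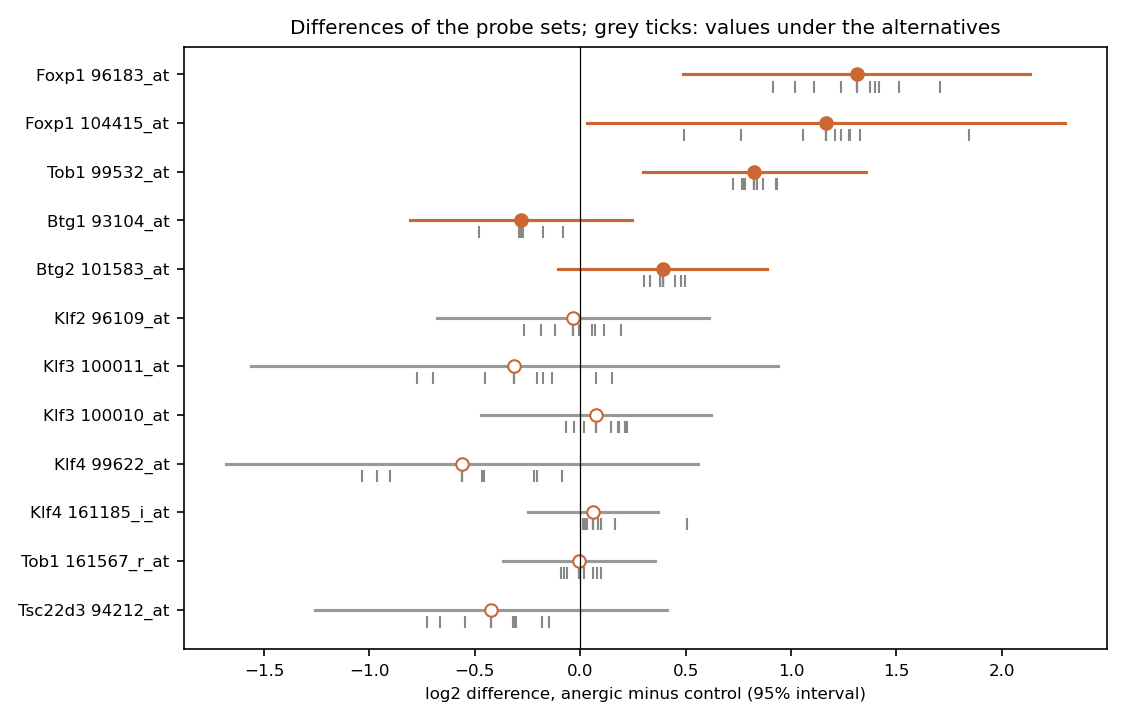
Log2 difference, anergic minus control (horizontal axis), with its unadjusted 95% interval from limma for the 12 probe sets; filled circles were tested, open circles with grey bars lay below the filter and take their interval from the fit without it, and grey ticks below each bar are the values under the other settings. The intervals of both Foxp1 probe sets and of Tob1 99532_at lie above 0, those of the others include it, and the ticks of Tob1 99532_at span only 0.72 to 0.93.

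**Figure D4:**
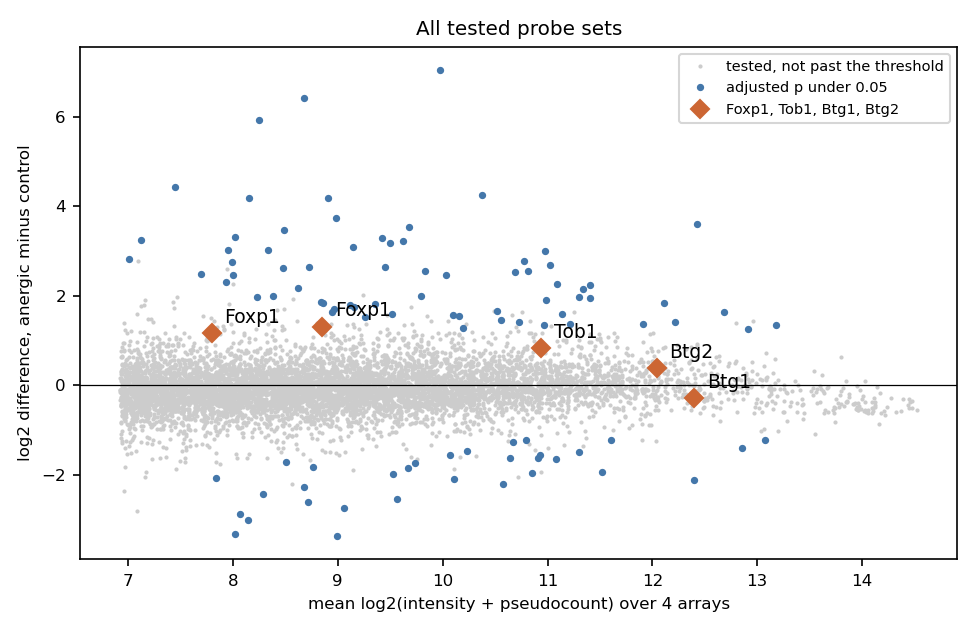
Mean log2(intensity + 29.15) over the 4 arrays (horizontal axis) against the log2 difference, anergic minus control, for the 7453 tested probe sets; blue points passed the threshold and orange diamonds are the 5 probe sets of Foxp1, Tob1, Btg1 and Btg2. The diamonds lie within the grey cloud, below the size of 1.21 that was the smallest difference called, except Foxp1 96183_at at 1.31.

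Close relatives of these transcription factors did not pass the test either. Of 12 other Kruppel-like and Sp factors on the array 9 were tested, and 0 passed in limma (2 at an unadjusted p under 0.05), with 7 of 9 lower in anergic cells and a median of -0.15. Of all tested probe sets 58.1% were lower. The list's median was -0.08 with quantile normalization and -0.04 with arrays centred on their medians. Klf10, a gene induced by TGF-beta, was at 3710.1 and 1501.3 on the control arrays and at 1035.9 and 1177.9 on the anergic arrays (-1.08 ± 0.39, SE, adjusted p = 0.336). Klf6 differed by -0.61 (adjusted p = 0.405), Klf13 by -0.32 and -0.75 at its probe sets, and Sp3 by -0.47. Of 8 other forkhead factors tested 0 passed (1 at an unadjusted p under 0.05), with 4 higher and 4 lower. Foxk2 and Foxm1 differed by 0.54 and 0.69 (adjusted p = 0.582 and 0.605). The FoxO genes Foxo3 and Foxo4 were tested and differed by 0.26 ± 0.25 and 0.04 ± 0.28 (SE). Foxq1 showed the largest difference there, -1.92 ± 0.62, with anergic array 1 at 10.4 and array 2 at 109.1 (adjusted p = 0.264). The median of the forkhead list was -0.07, and 0.04 with arrays centred on their medians.

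Genes around the machinery through which Tob and BTG proteins act did not pass the test, and they lay on both sides of 0. In the list of other family members, CCR4-NOT subunits, the Pan2 deadenylase and poly(A)-binding proteins, 11 genes were tested and 0 passed in limma (2 at an unadjusted p under 0.05). By sign 8 were lower and 3 higher in anergic cells, where 58.1% of all tested probe sets were lower. The median was -0.27 on the deposited scale, -0.12 with quantile normalization and -0.17 with arrays centred on their medians. Pan2 was at 721.4 and 709.3 on the control arrays and at 400.5 and 359.1 on the anergic arrays (-0.87 ± 0.27, SE, adjusted p = 0.253). Cnot7, a catalytic subunit bound by BTG proteins, differed by -0.16 at its brightest probe set and by -1.27 at another (adjusted p = 0.937 and 0.402). The poly(A)-binding protein gene Pabpc4 differed by -0.81 and the methyltransferase gene Prmt1 by -0.44 (adjusted p = 0.491 and 0.728).

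Genes known as targets of Foxo1 or Klf2 in T cells were mostly lower in anergic cells, although Foxo1 was not analysed and Klf2 was too dim to test. The list does not separate genes that these factors raise from genes that they hold down, and the activity of the factors was not tested. Of 20 targets tested, Itgb7, Txnip and Il7r fell, 0 rose and 17 did not pass. By sign 15 were lower and 5 higher, where 41.9% of all tested probe sets were higher, and the median was -0.60 beside -0.09 for all probe sets. It was -0.65 with quantile normalization and -0.49 with arrays centred on their medians. Itgb7, the integrin chain for gut homing, was at 11349.4 and 12669.1 on the control arrays and at 4429.2 and 4632.3 on the anergic arrays (-1.40 ± 0.21, SE, limma adjusted p = 0.0205). Its dimmer probe set gave -1.62 (adjusted p = 0.147). Il7r, a main Foxo1 target and a gene that Foxp1 holds down, was at 1475.9 and 3445.4 against 485.1 and 526.8 (-2.10 ± 0.38, adjusted p = 0.0461).

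Txnip, whose product limits glucose uptake, was at 5102.1 and 4372.8 on the control arrays and at 1942.9 and 2060.4 on the anergic arrays (-1.23 ± 0.22, SE, adjusted p = 0.0451). Its second tested probe set overlapped between the groups and differed by -0.37 (adjusted p = 0.821). Cxcr3, counted here as well as among the Th1 markers, did not pass. The S1pr1 exit receptor was at 345.2 and 201.5 on the control arrays and at 76.8 and 119.8 on the anergic arrays (-1.23, adjusted p = 0.316), and was singled out after its values were seen because Klf2 drives it. The cell cycle inhibitor gene Cdkn1a, a target of Klf4 and FoxO proteins, was higher at both of its probe sets (1.07 and 1.11, adjusted p = 0.154 and 0.135). Each of these calls was lost under some settings, always with the same sign. Il7r passed in 3 of 11 other settings (scaling, pseudocount, filter, trend, or 1 array left out), and Itgb7 and Txnip in 6 of 11. Such counts, here and below, leave out a fit with the replicate number as a block. Under that block Itgb7, Txnip and Il7r passed in limma (adjusted p = 0.000271, 0.00105 and 0.000128), as did 10.2% of all tested probe sets. Leaving out anergic array 1 ended the calls of Itgb7, Txnip and Il7r (adjusted p = 0.307, 0.37 and 0.132), as did leaving out anergic array 2 (adjusted p = 0.186, 0.211 and 0.0602).

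In a list of kinases and other regulators around FoxO proteins, Pik3cd and Sgk1 fell among 24 tested genes, 0 rose and 22 did not pass. The list also holds Map2k5, Mef2a and Mef2d, so not every gene in it acts on FoxO proteins directly. Sgk1, a kinase that phosphorylates FoxO proteins and that glucocorticoids induce, was at 2912.4 and 3843.5 on the control arrays and at 817.7 and 1378.9 on the anergic arrays (-1.63 ± 0.30, SE, limma adjusted p = 0.0491). Pik3cd encodes the p110-delta kinase subunit and was at 655.7 and 956 against 46.5 and 60.5 (-3.32 ± 0.37, adjusted p = 0.00564), with -1.74 at its second probe set (adjusted p = 0.13). The kinases Akt2 and Pdpk1 differed by 0.65 and 0.61 (adjusted p = 0.359 and 0.388). The median of the list was -0.02, and 0.09 with arrays centred on their medians. The call of Pik3cd held under all 10 other settings in which it was tested, and that of Sgk1 under 4 of 11. Both anergic values of Pik3cd lay below the filter, so its control signal brought it into the test. It passed in limma without a filter (adjusted p = 0.0185), and a stricter filter left it untested. Sgk1 was at -1.26 without anergic array 1 (adjusted p = 0.329).

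Tsc22d3 is best known from the response to glucocorticoids, and most genes of that list did not pass. Of 10 genes of that list tested, Sgk1 fell, 0 rose and 9 did not pass, with a median of 0.05. The phosphatase gene Dusp1 differed by 0.92 ± 0.29 (SE, adjusted p = 0.241), Anxa1 by 0.28 and Fkbp4 by -0.46 at their brightest probe sets, while Fkbp5 differed by -0.03 and the receptor gene Nr3c1 by 0.32. Tsc22d4, a relative of Tsc22d3, differed by -0.21 ± 0.24 (adjusted p = 0.853).

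Other quiescence genes gave both directions. Of 22 tested, Slfn2 rose, Zfp36l1 fell and 20 did not pass, with a median of -0.19. Slfn2, a Schlafen gene that keeps T cells resting, was at 126.3 and 281 on the control arrays and at 1270.9 and 3543.2 on the anergic arrays (3.29 ± 0.51, SE, limma adjusted p = 0.0225), with 2.02 at its second probe set (adjusted p = 0.167). Zfp36l1, an RNA-binding protein gene that restrains the cell cycle, was at 2942.8 and 3676.5 against 1408.1 and 871.1 (-1.54 ± 0.29, adjusted p = 0.0496), and passed in only 3 of 11 other settings. It was at -1.88 and -1.21 without anergic array 1 and 2 (adjusted p = 0.0521 and 0.25). Rbl1, a pocket protein of the Rb family, differed by 1.25 ± 0.33 (adjusted p = 0.152) and Dusp6 by -1.57 ± 0.35 (adjusted p = 0.0969). Slfn2 passed in 10 of 11 other settings, the exception being the fit with no intensity trend (adjusted p = 0.0991).

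Cell cycle genes, which these factors hold back, lay on both sides of 0. Of 24 tested, Myc fell, 0 rose and 23 did not pass, with 10 higher and 14 lower and a median of -0.11 (-0.01 with arrays centred on their medians). Myc was at 377.6 and 516.5 on the control arrays and at 66.4 and 101.5 on the anergic arrays (-2.08 ± 0.39, SE, limma adjusted p = 0.0482). The cyclin genes Ccnd2 and Ccne1 differed by 1.44 and 0.96 (adjusted p = 0.191 and 0.315), and Pcna by -0.59 (adjusted p = 0.361). The call of Myc was lost when control array 2 (-1.86), anergic array 1 (-1.85) or anergic array 2 (-2.30) was left out, with adjusted p between 0.0597 and 0.262. It passed in 4 of the 10 other settings in which it was tested, and missed also with a pseudocount of 1, with no filter and with no intensity trend (adjusted p = 0.0511, 0.123 and 0.0824).

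**Figure D5:**
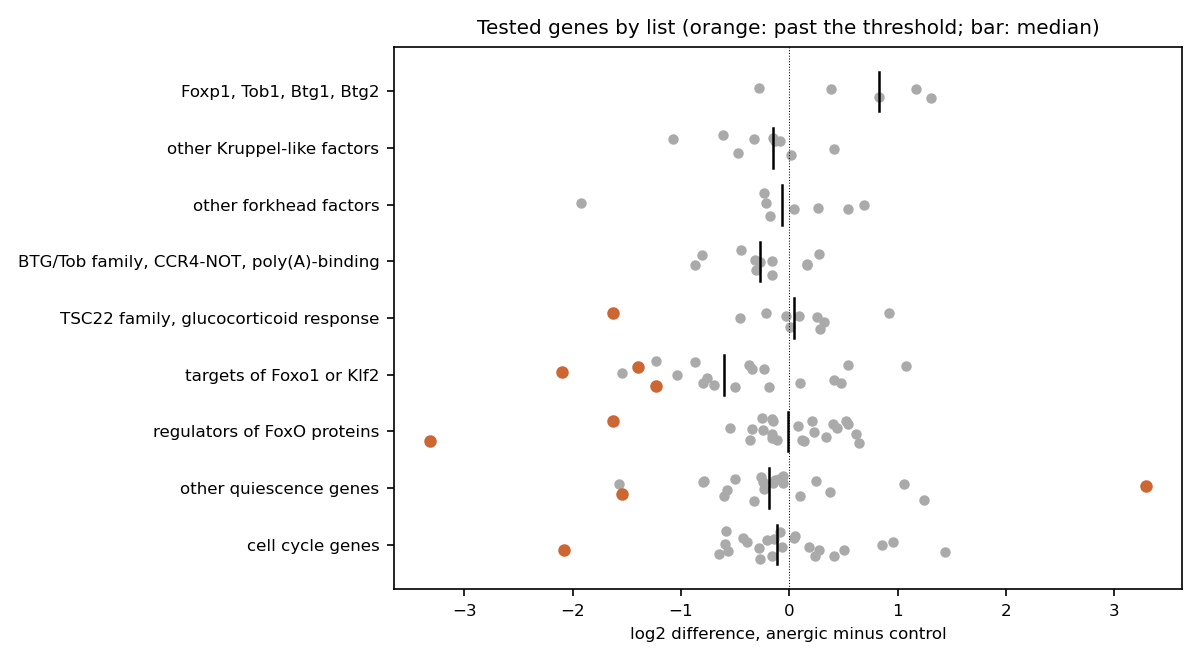
Log2 difference, anergic minus control (horizontal axis), of every tested gene in each list, with 1 point for the brightest probe set of a gene; the top line shows the 5 probe sets of Foxp1, Tob1, Btg1 and Btg2. Orange points passed the threshold, grey points did not, and the black bar is the median: 0.83 for the top line and -0.60 for the targets of Foxo1 or Klf2. The top line counts Foxp1 at 2 probe sets and the lists have 1 per gene, so these medians are not on the same basis.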

How the data were processed

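Biotin-labelled cRNA from 2 control and 2 anergic samples was hybridised to arrays, per the labels' protocols. The authors deposited linear intensities for 12488 probe sets, scaled before deposit (trimmed mean 500.3 on each array). How the scans were read, background-corrected and summarized is not given in the sources used here. No detection calls or depth were used, and the number of arrays limits the precision.

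Of 12422 probe sets that are not controls, 10833 had 1 gene symbol, 396 several and 1193 were not listed in the platform annotation. Symbols were checked by gene ID against RefSeq (GRCm38.p6) for 10817. The 9 genes and all lists were chosen with earlier results of these data known. Genes named from the lists around them are those past the threshold and up to 4 with the smallest p. Named for their role after their values were seen are Foxo4, Tsc22d4, Fkbp5, Nr3c1, S1pr1 and Cdkn1a. Of the cell type markers, named here only in part, the choice was likewise made after the values were seen.

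Values were log2(intensity + 29.15), the pseudocount being the median over arrays of the 20th percentile. Probe sets with a mean above the 40th percentile (7453) were fitted with limma 3.58.1 in R 4.3.3 (lmFit, eBayes with an intensity trend, 2 residual and 6.17 prior degrees of freedom), two-sided, with Benjamini-Hochberg adjustment at 0.05. The fit was run on simulated data with values drawn independently for each array. Deviations shared between arrays were not simulated, so that run does not cover them. With 2 arrays a group, the smallest two-sided p of an exact permutation test is 0.333. Promoter letters were searched in 250-base windows. Alternatives covered scaling, pseudocount, filter, intensity trend, replicate number as a block, leaving out each array, and 1 value per gene.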

Additional observations from a re-analysis of the deposited data

How the results depend on the processing

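Over 65 values of the 5 tested probe sets under the alternatives, 0 changed sign and 61 stayed on the same side of the threshold, counting 1 that the stricter filter left untested. The 4 that newly passed were Foxp1 96183_at without control array 1 and 3 under the replicate block. Of 84 values of the 7 untested probe sets, 79 moved by under 1 SD. The settings for filter, intensity trend and replicate block keep every log2 difference as it was. There no sign could change and no untested value could move. The same holds for 1 value per gene at Tob1, Btg1 and Btg2, which had 1 tested probe set each. Arrays of the same number share only that number in the labels, although their deviations correlated across groups (r = 0.537 over tested probe sets). With the replicate number as a block, 3 of the 5 probe sets passed in limma: Foxp1 96183_at (adjusted p = 0.00207), Foxp1 104415_at (adjusted p = 0.0304) and Tob1 99532_at (adjusted p = 0.014). The block also raised the calls over all probe sets from 100 to 761 (389 higher, 372 lower), which is 10.2% of those tested. The cause was not tested. Among these calls were Itgb7, Txnip, Il7r, Sgk1, Pik3cd, Slfn2, Zfp36l1 and Myc. Leaving out 1 array gave 43 to 344 calls overall (283 without control array 1, 344 without control array 2, 43 without anergic array 1, 61 without anergic array 2), and 0 to 1 of the 5 probe sets. Calls overall were 64 with arrays centred on their medians (52 higher and 12 lower in place of 68 and 32), 59 with no filter on low values, where more probe sets are tested, and 38 with no intensity trend. The median difference of all tested probe sets was -0.09 as deposited and 0.02 after centring. Measured from that median, Foxp1 96183_at was at 1.40, Tob1 at 0.91, Btg2 at 0.48 and Btg1 at -0.20. These values are the same on either scale by construction, since centring shifts all probe sets alike. Brightness limits Klf2, Klf3, Klf4 and Tsc22d3, whose probe sets lay below the filter.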
